A study of Homo sapiens with 22 samples.

Results

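Glucocorticoid response and TSC22D genes were described in HUDEP-2 cells by RNA-Seq. HUDEP-2 is an immortalized human line of erythroid progenitors that expands in culture and matures after a change of medium. The members were chosen by symbol from a list of 10 genes: the receptor NR3C1, genes that the receptor is known to induce, and TSC22D1, a relative of the induced gene TSC22D3. Of the 10 listed genes, 9 had a row among the 59087 gene names of both count tables (NR3C1, FKBP5, TSC22D3, KLF9, DUSP1, SGK1, ZFP36L2, ZBTB16 and TSC22D1), and the remaining one was not analysed here. The list rests on the response to the change of medium between D0 and D6 and on a lower TSC22D1 count in H2A.X KO cells at D0. Values of these contrasts are therefore given as a description, without a test.

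The glucocorticoid receptor is held in the cytoplasm by HSP90 and its co-chaperones until it binds a steroid, and then moves to the nucleus and acts on genes near its binding sites. FKBP5, one of its best known targets, encodes a co-chaperone that lowers the affinity of the receptor for hormone. In erythroid progenitors, glucocorticoids favour self-renewal over maturation, which is why dexamethasone, a synthetic glucocorticoid, is part of many expansion media.

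The libraries came from 2 experiments. On each of D0 and D6, one set compared 3 H2A.X KO samples with 2 WT samples (10 libraries over both days). The other compared 3 BAZ1B KO samples with 3 WT samples (12 libraries). The labels number the samples, but do not say that the same number at D0 and D6 is the same subclone. H2A.X is a histone variant that is phosphorylated at DNA breaks, and BAZ1B is a chromatin remodeling subunit and a kinase of H2A.X. KO cells were made with pairs of guides that cut around the coding sequence of H2A.X or the first exon of BAZ1B. The KO samples are subclones of the line. The paper speaks of WT subclones as well, and states that these were handled like the KO lines. All groups, WT included, carry the doxycycline-dependent transgene that immortalized the line. D0 cells came from expansion medium with SCF, erythropoietin, dexamethasone and doxycycline. D6 cells had been in a medium with plasma, heparin, holo-transferrin, insulin, SCF, erythropoietin and doxycycline, for which the methods list no dexamethasone. Every D6 against D0 difference thus holds the loss of the drug, the other changes of medium and maturation together, and these cannot be told apart.

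Library totals ran from 11910141 to 21013004 counts in the H2A.X experiment and from 33199408 to 41273244 in the BAZ1B experiment. All pairs of replicates differed by more than sampling noise. In the BAZ1B experiment the WT libraries of a day correlated at 0.997 to 0.998 in log CPM. The KO libraries of a day correlated at 0.972 to 0.994, with the lowest value between replicates 1 and 2 at D0. Each gene had 1 estimate of spread for both genotypes, so the p values do not allow for a wider spread in KO. The targeted genes were lower in their KO cells. The H2A.X gene (H2AFX in the tables) differed from WT by -1.5 on the log2 scale at D0 (adjusted p = 0.0304, edgeR) and by -1.52 at D6 (adjusted p = 0.0233). BAZ1B differed by -0.40 and -0.38 in BAZ1B KO cells (adjusted p = 0.00415 and 0.0025). In H2A.X KO cells BAZ1B was higher than in their WT (1.18 at D0 and 1.23 at D6, adjusted p = 0.00943 and 0.00551, edgeR). The 13 erythroid markers summed to 7001 to 8574 CPM at D0 and 33869 to 46260 at D6 in the BAZ1B experiment. In the H2A.X experiment the D0 sums were 24765 and 33751 for WT, against 12683 to 16764 for KO, whereas the D6 sums were 38572 and 65104 for WT against 44412 to 74966 for KO. The 13 mast cell and eosinophil markers moved as well: from 738 to 791 CPM at D0 to 105 to 124 at D6 in WT cells of the BAZ1B experiment (708 to 911, then 69.6 to 138, in KO), and from 437 to 642 down to 19.4 to 47.0 in H2A.X KO cells, with 174 to 202 and 196 to 326 in their WT. The part of these cell type markers in the results was not tested, and in bulk samples fewer cells of a type and less RNA per cell cannot be told apart. The 6 megakaryocyte markers, of which 1 was abundant enough to be tested, went from 72.4 to 75.5 CPM at D0 to 8.44 to 10.5 at D6 in WT cells of the BAZ1B experiment (34.4 to 67.6, then 1.48 to 4.80, in KO), and from 32.7 to 75.7 to 2.09 to 4.89 in H2A.X KO cells, with 8.72 to 9.67 and 3.57 to 7.93 in their WT. The 6 lymphocyte markers summed to at most 1.43 CPM and the 6 monocyte markers to at most 6.35. H2A.X KO replicate 3 at D6 stood apart, with log CPM correlations of 0.940 and 0.942 to the other KO libraries of that day. Its column is also the only KO column of that table without the word Redo in its header, a word that no WT column carries, so that what the word marks and the genotype cannot be told apart. In the H2A.X experiment the KO to WT difference of all genes increased with transcript length (Spearman's rho 0.50 at D0 and 0.55 at D6, over 12017 genes, which share their libraries), and in the BAZ1B experiment it did not (-0.027 and 0.044, over 12408 genes). For the members, TSC22D4, EP300, NCOA2 and FKBP4 in H2A.X KO contrasts, a value corrected for transcript length and GC content is given as well. It comes from a fit in which every library was so corrected. TSC22D2 and both targeted genes, among them H2AFX (longest transcript 1592 bases), are given without it.

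The receptor binds as a dimer to an inverted repeat, the glucocorticoid response element, here searched as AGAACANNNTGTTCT, which reads the same on both strands. RefSeq start sites on GRCh38 were at hand for 7 members (NR3C1, FKBP5, TSC22D3, KLF9, DUSP1, SGK1 and TSC22D1). Within 10 kb of these starts no member held an exact match, and 0.388% of 27305 genes did. With 1 mismatch allowed, 1 member of 7 held a match, TSC22D3, against 9.53% of all genes. Within the whole gene, 1 member of 7 held an exact match, FKBP5. Of genome windows as long as the FKBP5 gene (154999 bp), 2.72% held one. That share is for 1 window, and a match in any of the 7 genes searched is less rare. NR3C1 (157582 bp), SGK1 (148865 bp) and TSC22D1 (145005 bp) are about as long. The FKBP5 and TSC22D3 sites are printed since no others were found in these searches, in which 1 mismatch was allowed only within 10 kb of a start. They are given on the strand of the gene, with the element in capitals.
FKBP5 intron: cacattcAGAACAGGGTGTTCTgtgctct
TSC22D3 intron: atggcccAGAACATACTGTGCTgtcccaa
The FKBP5 sequence lies at chr6:35602075-35602103 of GRCh38, 86826 bp after the nearest of 2 listed starts of a gene that runs from 35573585 to 35728583 on the minus strand. The TSC22D3 sequence lies at chrX:107767837-107767865, 7936 bp after the nearest of 4 listed starts of a gene that runs from 107713221 to 107777342 on the minus strand. A match describes the sequence and is no evidence of binding, and the missing matches of the other members say only that these letters are not in those windows.

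Values in the text are normalized counts, that is, counts divided by the relative effective size of the library (TMM) within 1 experiment. Both experiments were normalized separately. On the scale of FPKM, which corrects counts for exon length and library size, in WT cells of the BAZ1B experiment at D0 ZFP36L2 stood highest (198 ± 2.42, SD, n = 3) and FKBP5 next (102 ± 2.67). TSC22D3 (14.7 ± 0.0333) and TSC22D1 (13.3 ± 0.150) followed, then NR3C1 (5.48 ± 0.0493), DUSP1 (5.04 ± 0.161) and KLF9 (4.12 ± 0.165). SGK1 (0.855 ± 0.0394) and ZBTB16 (0.0946 ± 0.0191) stood lowest. At D6 FKBP5 (105 ± 4.16) and ZFP36L2 (93.1 ± 1.56) were the highest, and DUSP1 (19.4 ± 1.82) and TSC22D1 (23.3 ± 1.06) as well as KLF9 (14.7 ± 1.61) lay between the receptor and TSC22D3 (32.9 ± 6.49).

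**Figure D1:**
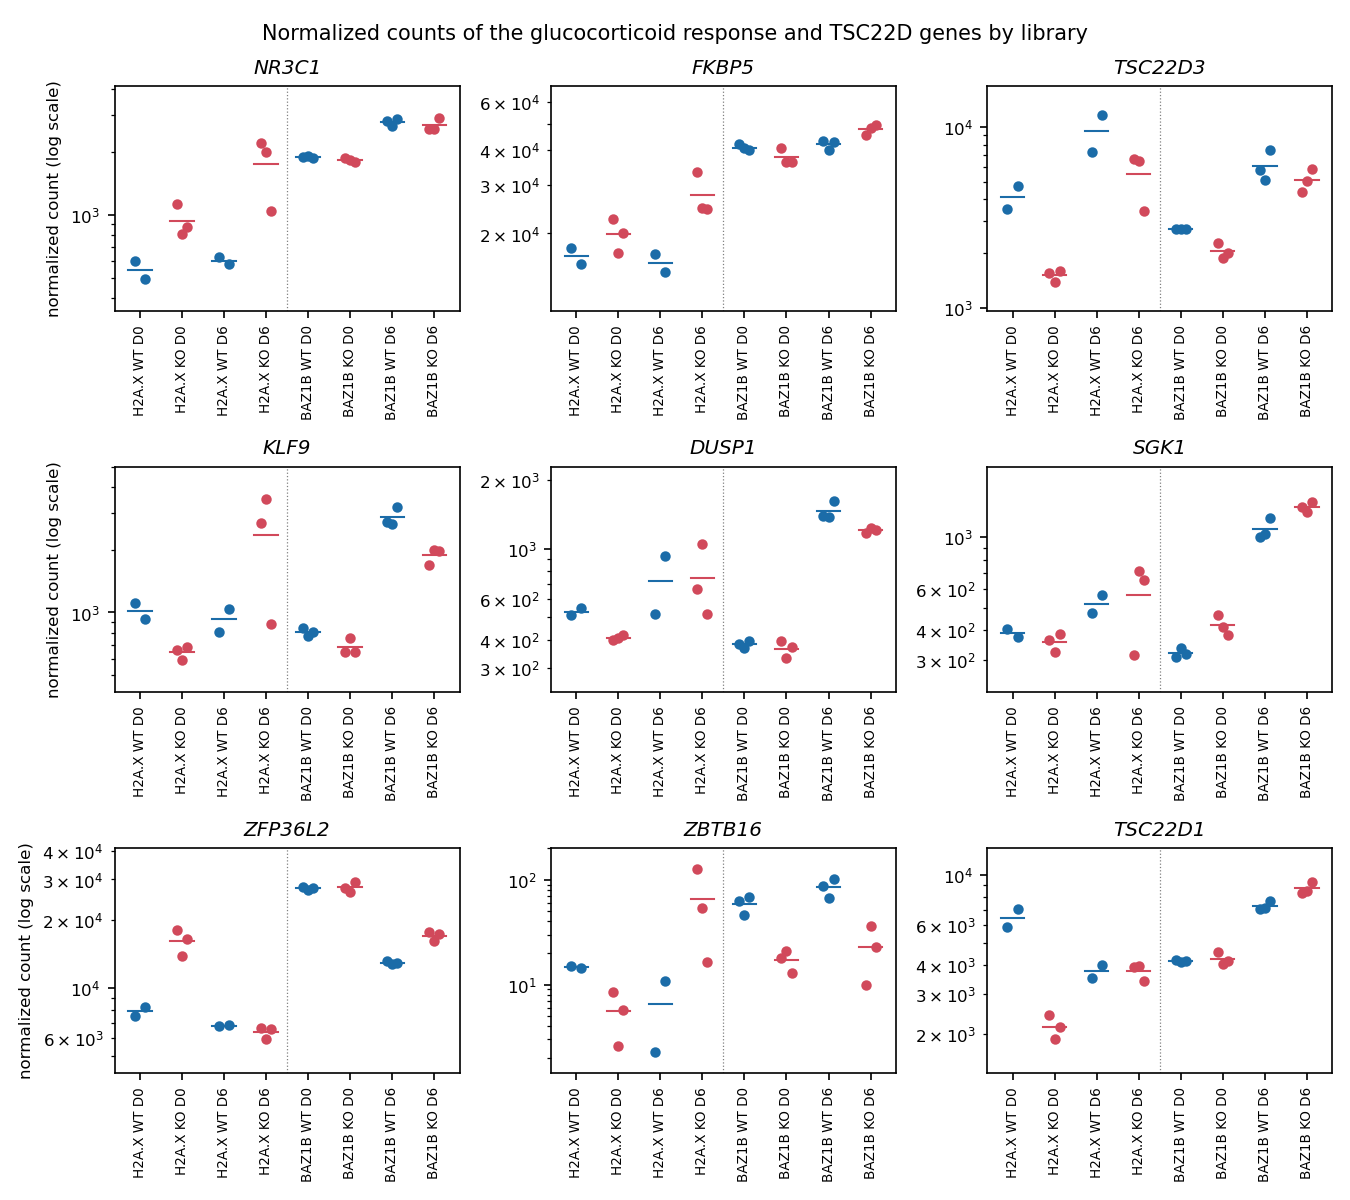
Normalized counts (log axis) of the 9 genes in each library, by experiment, genotype and day. Points are libraries, bars are group means, blue is WT and red is KO, and the dotted line divides the experiments, which were normalized separately. TSC22D1 lies at 5913 and 7065 in H2A.X WT cells at D0, above the 3 KO libraries at 1891 to 2410.5, and both genotypes meet at D6.

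Between D0 and D6, counts of TSC22D3, KLF9, DUSP1 and SGK1 were higher at D6, in the medium without dexamethasone, in both genotypes of the BAZ1B experiment, while in H2A.X WT cells 4 of the 9 members had a log2 fold change above 0. FKBP5 was nearly level in both WT groups. In WT cells of the BAZ1B experiment, 6 of 9 members were higher at D6 without overlap of the groups, 1 was lower (ZFP36L2), and 2 overlapped (FKBP5 and ZBTB16). Of all 13879 genes tested, 38.1% were higher and 39.9% lower in the same way. In BAZ1B KO cells, 7 members were higher without overlap and 1 was lower, against 33.3% and 34.6% of all genes. In the H2A.X experiment 2 were higher and 3 lower in WT (25.2% and 26.1% of 13236 genes), and 6 higher and 1 lower in KO (23.7% and 25.2%). The members' median log2 fold change was 0.81 in BAZ1B experiment WT, 1.03 in BAZ1B KO, -0.09 in H2A.X WT and 0.87 in H2A.X KO cells, beside -0.02, -0.02, 0.01 and 0.02 for all genes. Since the rule used these contrasts, nothing is read from the counts.

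**Figure D2:**
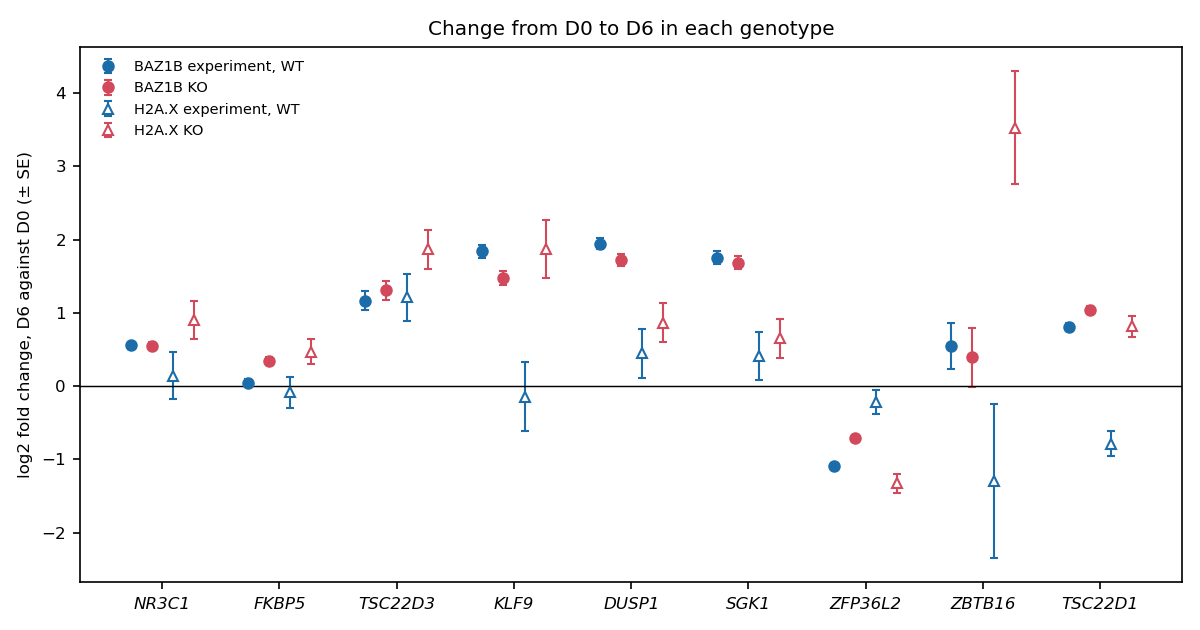
Log2 fold changes of D6 against D0 with their SE for the 9 genes, in WT and KO cells of both experiments (circles, BAZ1B experiment, and triangles, H2A.X experiment). In the BAZ1B experiment DUSP1, KLF9 and SGK1 lie between 1.47 and 1.95, FKBP5 lies at 0.04 and 0.34, and ZFP36L2 lies below 0.

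NR3C1 encodes the glucocorticoid receptor. In WT cells of the BAZ1B experiment it counted 1888, 1902 and 1869 at D0 and 2802, 2660.3 and 2851 at D6, a log2 fold change of 0.56 ± 0.05 (SE). BAZ1B KO cells gave 1861, 1829 and 1791 at D0 and 2557, 2552 and 2896 at D6 (0.55 ± 0.05). All D6 libraries of this experiment lay above all D0 libraries. In H2A.X WT cells the counts overlapped, with 599 and 494 at D0 and 628 and 579.8 at D6 (0.14 ± 0.32). In H2A.X KO cells they were 1127, 812 and 871 at D0 and 2209, 1995 and 1039.7 at D6 (0.90 ± 0.25), where replicate 3 fell below the highest D0 library. Without that D6 library the value was 1.19.

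FKBP5, the co-chaperone, hardly differed between the days in WT cells. In the BAZ1B experiment these cells counted 42111, 40638 and 40036 at D0 and 43129, 40211 and 43046 at D6, so that the groups overlapped (0.04 ± 0.05). In BAZ1B KO cells the counts were 40675, 36384 and 36249 at D0 and 45635, 48380.3 and 49491 at D6, without overlap (0.34 ± 0.05). H2A.X WT cells held 17783 and 15443 at D0 and 16786 and 14518 at D6 (-0.09 ± 0.21). H2A.X KO cells held 22599, 16999.7 and 20082 at D0 and 33378, 24659 and 24623 at D6 (0.47 ± 0.17). Both KO lines were higher at D6 without overlap, and in both WT groups the days overlapped. Over the 12 libraries of the BAZ1B experiment, the genes with the log CPM most like that of FKBP5 were NFATC2 (Pearson's r 0.973), ACAT2 (0.958), GBE1 (0.940), ZNF324B (0.929) and CDIP1 (0.928). These points share their libraries, and the values are a description.

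TSC22D3 encodes GILZ, a leucine zipper protein that mediates anti-inflammatory effects of glucocorticoids. It counted 2738, 2731 and 2725 at D0 and 5826, 5092 and 7455 at D6 in WT cells of the BAZ1B experiment (log2 fold change 1.17 ± 0.13). In BAZ1B KO cells it counted 2273, 1882 and 2001, then 4384, 5002 and 5875 (1.31 ± 0.13). It was the one induced gene that was higher at D6 without overlap in all 4 genotype groups. H2A.X WT cells gave 3508 and 4691 at D0 and 7292 and 11707 at D6 (1.21 ± 0.32). H2A.X KO cells gave 1552, 1388 and 1604 at D0 and 6645, 6502 and 3436 at D6 (1.87 ± 0.27, and 2.14 without KO replicate 3 at D6).

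KLF9 is a zinc finger repressor that glucocorticoids induce in many cell types. In WT cells of the BAZ1B experiment its counts were 838, 774 and 804 at D0 and 2734, 2658 and 3237 at D6, 3.57-fold higher. BAZ1B KO cells counted 642, 754 and 646, then 1694, 2007 and 1982, 2.78-fold higher. The H2A.X WT groups overlapped, with 1107 and 933 at D0 and 806 and 1045 at D6 (log2 fold change -0.14 ± 0.47). H2A.X KO cells counted 659, 591 and 686 at D0, and at D6 2690.5 and 3529, while replicate 3 counted 877 (1.87 ± 0.39, and 2.29 without that library).

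DUSP1, a phosphatase that switches off MAP kinases, had the highest fold of the 9 members in WT cells of the BAZ1B experiment. Its counts were 381, 369 and 393 at D0 and 1396, 1379 and 1625 at D6, 3.85-fold higher, and in BAZ1B KO cells 393, 332 and 369, then 1170.1, 1234 and 1214, 3.31-fold higher. The H2A.X experiment showed smaller differences: 513 and 549 against 517 and 934 in WT cells, which overlapped (log2 fold change 0.45 ± 0.33). In KO cells, 399, 405 and 417 stood against 664, 1047 and 516 (0.87 ± 0.27).

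SGK1, a kinase that regulates ion channels and survival, counted 307, 336 and 316 at D0 and 1003, 1029 and 1199 at D6 in WT cells of the BAZ1B experiment, 3.37-fold higher. BAZ1B KO cells counted 466, 411 and 382, then 1344, 1278 and 1416, 3.21-fold higher. H2A.X WT cells counted 405 and 373, then 472 and 565, 1.33-fold higher and without overlap. H2A.X KO cells counted 364, 323 and 387, then 314, 718 and 658, with replicate 1 at D6 below all D0 libraries (log2 fold change 0.65 ± 0.26).

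ZFP36L2 encodes an RNA binding protein that promotes mRNA decay and is known to sustain the self-renewal of early erythroid progenitors. It went the other way. WT cells of the BAZ1B experiment counted 27745, 27080.2 and 27492 at D0 and 13142, 12713 and 12881 at D6, a fold of 0.471, and BAZ1B KO cells 27563, 26342 and 29319.6, then 17571, 16037 and 17208, a fold of 0.611. H2A.X KO cells counted 17973, 13793 and 16414 at D0 and 6664, 5959.8 and 6563 at D6, a fold of 0.398. In H2A.X WT cells it was low on both days, with 7524 and 8225 at D0 and 6775 and 6834 at D6 (log2 fold change -0.21 ± 0.16). Its paralog ZFP36L1, tested since it was not a member, rose in WT cells of the BAZ1B experiment (1.08, adjusted p = 4.6e-09, edgeR), and the third gene of the family, ZFP36, fell (-1.26, adjusted p = 1.8e-07).

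ZBTB16, the transcription factor PLZF, was the rarest of the 9, with 2 to 138 reads per library. WT cells of the BAZ1B experiment counted 62.2, 45.7 and 68.7 at D0 and 87.0, 66.8 and 103 at D6, which overlapped. In H2A.X KO cells the D0 counts were 8.45, 2.58 and 5.76 and the D6 counts 127, 54.2 and 16.4. H2A.X WT cells counted 15.2 and 14.4 at D0 and 2.28 and 10.7 at D6. The KO libraries at D6 had the widest spread of its groups (SD 56.1, n = 3). Those of BAZ1B KO cells were 17.7, 20.7 and 12.8 at D0 and 9.91, 36.0 and 23.0 at D6, which overlapped.

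TSC22D1 encodes a leucine zipper protein that TGF-beta induces and that pairs with other members of its family. Its day response was opposite in the WT cells of both experiments. In the BAZ1B experiment WT cells counted 4218, 4125 and 4158 at D0 and 7077, 7173 and 7698 at D6 (log2 fold change 0.81 ± 0.05), and BAZ1B KO cells 4557, 4065 and 4185, then 8350.2, 8523 and 9341 (1.03 ± 0.05). H2A.X WT cells counted 5913 and 7065 at D0 and 3519 and 4005 at D6 (-0.79 ± 0.17). H2A.X KO cells counted 2410.5, 1891 and 2136 at D0 and 3934, 3988 and 3423 at D6 (0.82 ± 0.14). H2A.X WT is the one group that was lower at D6, and it is also the group whose erythroid marker sum was high at D0, where the part of the marker level in the result was not tested. With the correction for length and GC content the values in H2A.X WT and KO were -0.62 and 0.95.

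At D0, then, TSC22D1 in H2A.X KO cells stood at 0.331 times the WT level, a log2 fold change of -1.6 ± 0.15 and the value for which the gene was listed. With the correction for length and GC content it was -2.10. Without each library in turn it lay between -1.72 and -1.46. In the same contrast TSC22D3 stood at -1.44 ± 0.29, ZBTB16 at -1.38 ± 0.87, KLF9 at -0.66 ± 0.42 and DUSP1 at -0.38 ± 0.30. ZFP36L2 stood at 1.03 ± 0.15 and NR3C1 at 0.78 ± 0.29, both without overlap of the groups, and FKBP5 (0.26 ± 0.19) and SGK1 (-0.12 ± 0.29) overlapped. With the correction for length and GC content ZFP36L2 was 1.04, NR3C1 0.059, TSC22D3 -1.08, ZBTB16 -2.07, KLF9 -1.02 and SGK1 -0.58, and the signs of FKBP5 (-0.47) and DUSP1 (0.041) turned. In all, 2 members were higher and 5 lower without overlap, against 36.1% and 34.1% of all 13236 genes tested, counts from which nothing is read. Both TSC22D genes of the list were thus lower in KO cells at D0, and both were nearer to WT at D6. Over the 10 libraries of this experiment, the genes with the log CPM most like that of TSC22D1 were CCNC (Pearson's r 0.953), CTPS1 (0.949), APOO (0.912), UIMC1 (0.910) and EID1 (0.910), again as a description over libraries shared by all genes.

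The other genes of the family were not members and were tested, but like the gene lists they were chosen with earlier results of these data known. TSC22D4 was lower in H2A.X KO cells at D0, with a mean of 1069.7 ± 47.0 (SD, n = 3) against 2161 ± 161 (n = 2), a log2 fold change of -1.01 ± 0.14 (adjusted p = 0.00317, edgeR's quasi-likelihood test), and -0.48 with the correction for length and GC content (adjusted p = 0.0423). At D6 it was -0.42 ± 0.14 (adjusted p = 0.0323), which turned to 0.45 with that correction (adjusted p = 0.0518) and lost its call without 7 of the 10 libraries left out singly (adjusted p 0.0512 to 0.282, the last without WT replicate 2 at D6). TSC22D4 rose between D0 and D6 in H2A.X KO cells (1.27, adjusted p = 0.000163) and in WT and KO cells of the BAZ1B experiment (1.43 and 1.36, adjusted p = 2.9e-09 and 5.4e-09), and the value in H2A.X WT cells was 0.68 (adjusted p = 0.0544). TSC22D2 rose in the BAZ1B experiment (0.57 in WT and 0.50 in KO, adjusted p = 1.5e-07 and 6.1e-07). It was not called in either H2A.X contrast of KO against WT (0.28 and 0.45, adjusted p = 0.364 and 0.144).

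The KO contrasts that the rule did not name ask how loss of BAZ1B, and loss of H2A.X at D6, bear on these genes. Each KO contrast at D6 equals that at D0 plus the difference of the day responses, on which the members were listed. Its tests are thus not independent of the listing. For TSC22D1 in H2A.X KO cells at D6 the rule used every part, and the value is a description. In BAZ1B KO cells at D0, 2 of 9 members passed an adjusted p of 0.05, where 3.88% of all tested genes did. SGK1 was higher, with 466, 411 and 382 against 307, 336 and 316 in WT (log2 fold change 0.39 ± 0.09, adjusted p = 0.0326, edgeR). ZBTB16 was lower, with 17.7, 20.7 and 12.8 against 62.2, 45.7 and 68.7 (-1.77 ± 0.36, adjusted p = 0.0154). Both genes showed no overlap between KO and WT, where 9.76% of all tested genes were higher and 12.7% lower in this way. Each lost its call without some single libraries: SGK1 without KO replicate 1 or 2 or any WT library (adjusted p 0.0554 to 0.14), and ZBTB16 without KO replicate 3 or WT replicate 1 or 3 (0.0613 to 0.0925). TSC22D3 was lower in each KO library at D0 (-0.41 ± 0.13) and did not pass (adjusted p = 0.117), and passed with DESeq2 (0.0291), with the D0 libraries alone (0.0239) and without KO replicate 1 (0.0464). KLF9 (-0.24, 95% interval -0.45 to -0.037, adjusted p = 0.222), without overlap of the groups, and FKBP5 (-0.12, interval -0.23 to -0.0053, adjusted p = 0.296) were not called, and FKBP5 was called without KO replicate 1 (-0.17, adjusted p = 0.0313). Without that library calls over all genes went from 539 of 13879 to 1323 of 14146. The intervals of NR3C1 (-0.16 to 0.065), ZFP36L2 (-0.082 to 0.11), TSC22D1 (-0.081 to 0.15) and DUSP1 (-0.24 to 0.11) held 0.

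At D6, 7 of 9 members differed between BAZ1B KO and WT cells, 4 higher and 3 lower, where 12.8% of all tested genes did (6.87% higher and 5.97% lower). ZFP36L2 was higher, with 17571, 16037 and 17208 against 13142, 12713 and 12881 in WT (log2 fold change 0.39 ± 0.05, adjusted p = 0.00013, edgeR). KLF9 was lower, with 1694, 2007 and 1982 against 2734, 2658 and 3237 (-0.60 ± 0.09, adjusted p = 0.000698). The groups of both genes were apart by more than their spread. ZBTB16 was lower as at D0, with 9.91, 36.0 and 23.0 against 87.0, 66.8 and 103 (-1.91 ± 0.35, adjusted p = 0.00325). TSC22D1 was higher, with 8350.2, 8523 and 9341 against 7077, 7173 and 7698 (0.26 ± 0.05, adjusted p = 0.00674). These 4 calls held without each library in turn.

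The other 3 calls were lost without some single libraries. SGK1 was higher by 0.32 ± 0.08 (adjusted p = 0.0244), FKBP5 by 0.18 ± 0.05 (adjusted p = 0.0324), and DUSP1 lower (-0.28 ± 0.07, adjusted p = 0.0246). Without KO replicate 3 none of the 3 was called (adjusted p 0.0953, 0.13 and 0.0635). SGK1 was also not called without WT replicate 1 or 2, DUSP1 without KO replicate 1 or WT replicate 3, and FKBP5 without KO replicate 2, any D6 WT library or WT replicate 2 at D0. NR3C1 was not called (-0.05 ± 0.05, 95% interval -0.16 to 0.055), and neither was TSC22D3 (-0.27 ± 0.13, interval -0.54 to 0.0050, adjusted p = 0.199). The erythroid marker sums of this day were 33869 to 39981 CPM in KO and 40257 to 46260 in WT, and 5 of 13 markers were lower in KO. Their part in these differences was not tested.

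**Figure D3:**
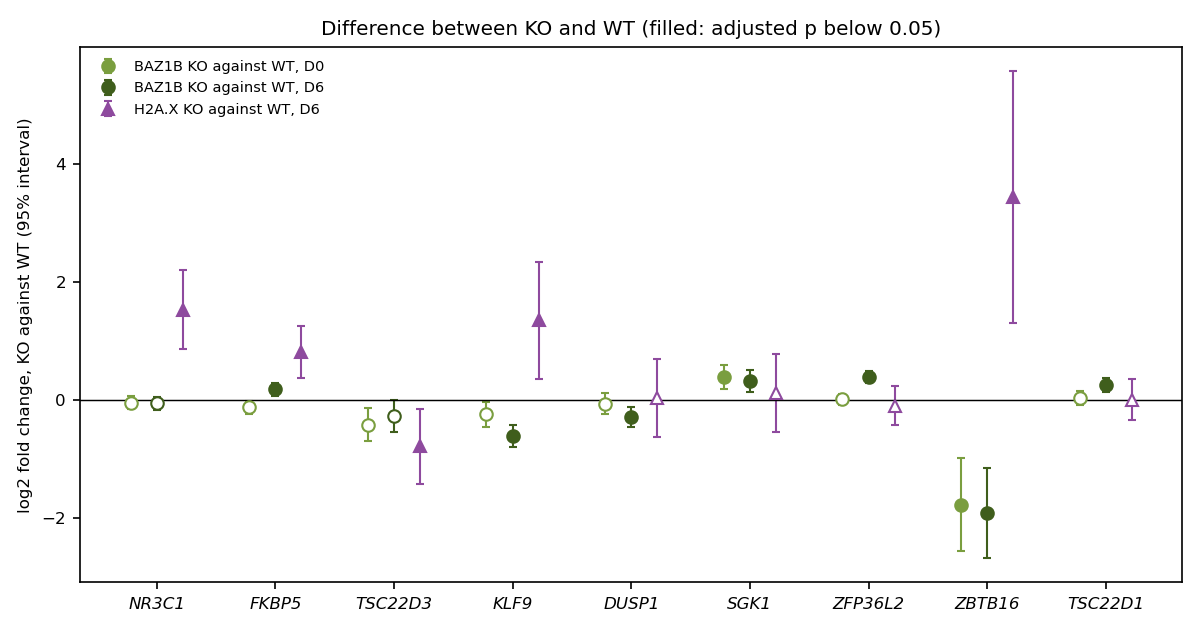
Log2 fold changes of KO against WT with 95% intervals for the 9 genes, for the 3 contrasts that were tested (light green, BAZ1B at D0, dark green, BAZ1B at D6, and purple triangles, H2A.X at D6). Filled symbols passed an adjusted p of 0.05. ZBTB16 lies at -1.77 and -1.91 in BAZ1B KO cells and at 3.44 in H2A.X KO cells. The value of TSC22D1 in H2A.X KO cells is a description.

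The difference of the BAZ1B KO effects between the days equals the difference of the day responses of both genotypes, on which the genes were listed, and is a description. It was 0.38 ± 0.06 for ZFP36L2, which was close to WT at D0 (0.02) and above it at D6, and 0.30 ± 0.07 for FKBP5. KLF9 stood at -0.36 ± 0.13, TSC22D1 at 0.22 ± 0.08 and DUSP1 at -0.22 ± 0.11. Under stricter cutoffs (adjusted p of 0.001, log2 fold change beyond 1.5 either way), which 0.36% and 0.749% of all genes passed for BAZ1B at D0 and D6 and 0.151% for H2A.X at D6, 0 members were called.

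In H2A.X KO cells at D6, 5 of 9 members differed from WT, 4 higher and 1 lower, a share to be read against 43.1% of all tested genes (22.2% higher and 20.9% lower). NR3C1 was higher, with 2209, 1995 and 1039.7 against 628 and 579.8 (log2 fold change 1.53 ± 0.30, adjusted p = 0.00487, edgeR). FKBP5 was higher, with 33378, 24659 and 24623 against 16786 and 14518 (0.82 ± 0.20, adjusted p = 0.00945). Neither gene showed overlap, and 31% of all tested genes were higher without overlap in this contrast. ZBTB16 was higher, with 127, 54.2 and 16.4 against 2.28 and 10.7 (3.44 ± 0.96, adjusted p = 0.0169). KLF9 was higher (1.36 ± 0.45, adjusted p = 0.0328), although KO replicate 3 (877) lay between the WT libraries (806 and 1045). TSC22D3 was lower, with 6645, 6502 and 3436 against 7292 and 11707 (-0.78 ± 0.29, adjusted p = 0.0495).

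With every library corrected for transcript length and GC content, NR3C1 stayed higher (0.68, adjusted p = 0.0413) and FKBP5 was level with WT (0.02, adjusted p = 0.93). KLF9 (0.90, adjusted p = 0.142), ZBTB16 (2.72, adjusted p = 0.0547) and TSC22D3 (-0.32, adjusted p = 0.436) were no longer called. TSC22D1, whose value in this contrast is a description, was level with WT before (0.01 ± 0.16) and then stood at -0.53. Without WT replicate 2, which leaves 1 WT library at D6, assumed to vary like the other groups, 0 of 9 members were called, and calls over all genes went from 5701 of 13236 to 152 of 13823, so that nothing is read from that 0. The values were then 1.51 for NR3C1 (adjusted p = 0.0666) and 0.74 for FKBP5 (adjusted p = 0.0904). Without WT replicate 1, KLF9 (1.20, adjusted p = 0.157) and ZBTB16 (2.62, adjusted p = 0.115) lost their calls, and KLF9 also without KO replicate 1 or 2 (adjusted p 0.0708 and 0.0978). TSC22D3 was not called without any one of the D0 libraries either (adjusted p 0.06 to 0.0682). Without KO replicate 3, the library that stood apart, NR3C1 (1.83), FKBP5 (0.92), KLF9 (1.78) and ZBTB16 (3.94) were called and TSC22D3 (-0.50, adjusted p = 0.0931) was not. DUSP1 (0.04 ± 0.30), SGK1 (0.12 ± 0.30) and ZFP36L2 (-0.09 ± 0.15) were not called, with corrected values of 0.63, -0.45 and -0.045. The difference of the H2A.X KO effects between the days, a description, was 1.6 ± 0.22 for TSC22D1, -1.12 ± 0.21 for ZFP36L2, 2.02 ± 0.61 for KLF9 and 4.82 ± 1.29 for ZBTB16.

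Of 58 further genes known to be induced by glucocorticoids in other cells, 41 were tested in each experiment. Between D0 and D6 in WT cells of the BAZ1B experiment 23 rose and 12 fell (background 33.5% and 35.4% of all tested genes), with a median log2 fold change of 0.50 against -0.02 for all genes. In BAZ1B KO cells 23 rose and 13 fell (background 33.2% and 34.5%), with a median of 0.57 against -0.02. Of those named by size, the metallothionein MT2A rose in WT (4.75, adjusted p = 1.0e-06, edgeR), as did TXNIP (2.24, adjusted p = 1.0e-09), an inhibitor of thioredoxin, and KLF13 (2.01, adjusted p = 2.4e-10), a relative of KLF9. The repressor SNAI2 fell (-5.36, adjusted p = 9.2e-08), as did CEBPD (-1.42, adjusted p = 5.7e-05) and the glutamine synthetase GLUL (-1.31, adjusted p = 5.95e-09). The genes of the list thus split in direction. The part of the drug, which the methods list for the D0 medium only, was not tested.

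**Figure D4:**
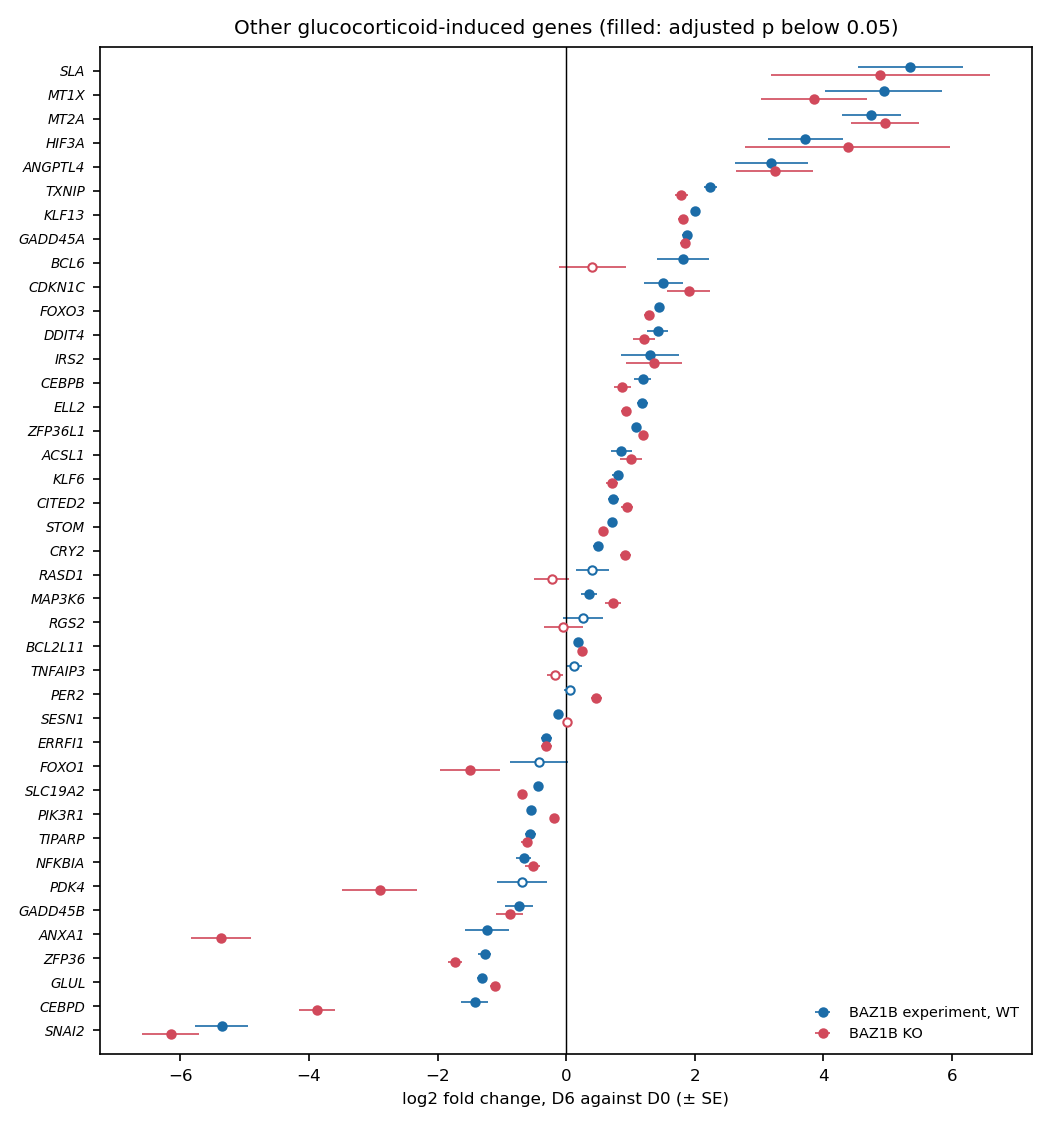
Log2 fold changes of D6 against D0 with their SE for the 41 further glucocorticoid-induced genes tested in the BAZ1B experiment, in WT (blue) and KO (red) cells, ordered by the WT value. Filled symbols passed an adjusted p of 0.05. SNAI2 lies lowest in WT cells at -5.36 and MT2A at 4.75, with 23 called above and 12 called below 0.

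In the H2A.X experiment the same list gave 1 higher and 2 lower genes in WT cells between the days (background 0.839% and 1.16%) and 13 higher and 5 lower in KO cells (14.8% and 16.1%). With a term for the sample number 11 genes were called in WT in place of 3, where calls over all genes went from 265 to 1127 of 13236. In KO cells MT2A (6.79, adjusted p = 0.00426, edgeR, on D6 libraries with a mean of 356 and an SD of 517), DDIT4 (2.65, adjusted p = 0.000827), an inhibitor of mTOR, and GADD45A (2.46, adjusted p = 0.000163), a growth arrest gene, had the largest values above 0, and ANXA1 (-4.66, adjusted p = 0.000272), which encodes an anti-inflammatory annexin, SNAI2 (-3.89, adjusted p = 4.4e-05) and ZFP36 (-1.04, adjusted p = 0.039) below. In WT cells ANXA1 rose instead (3.69, adjusted p = 0.0263), from a mean of 41.3 ± 4.14 to 530.3 ± 332 (SD, n = 2).

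Between KO and WT, 4 of the 41 genes were lower in BAZ1B KO cells and 0 higher at D0 (background 2.64% and 1.25%), and 11 were lower and 3 higher at D6 (5.97% and 6.87%). PDK4, a kinase that restrains pyruvate oxidation, was lower on both days (-1.74 and -3.96, adjusted p = 0.0328 and 0.000558, edgeR). At D0 the clock genes CRY2 (-0.78, adjusted p = 0.00016) and PER2 (-0.69, adjusted p = 0.000402) were lower. At D6 ANXA1 (-3.90, adjusted p = 0.000222) and CEBPD (-2.71, adjusted p = 9.8e-05) were lower, and GLUL (0.41, adjusted p = 0.00286), PIK3R1 (0.38, adjusted p = 0.00128) and ZFP36L1 (0.20, adjusted p = 0.0371) were higher. In the KO libraries at D6 ANXA1 counted a mean of 30.0 ± 30.9 (SD, n = 3), against 464 ± 95.9 in WT. In H2A.X KO cells 7 genes were higher and 2 lower at D0 (18.4% and 16.7%), and 14 higher and 5 lower at D6 (22.2% and 20.9%). With the correction for length and GC content 5 and 15 were called, where 3104 and 3186 of all 12017 genes were. Without WT replicate 2 of the same day these 9 and 19 calls came to 0 and 1, where calls over all genes went from 4651 of 13236 to 77 of 13978 at D0 and from 5701 to 152 of 13823 at D6, with 1 WT library left.

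The receptor's own machinery, 25 chaperones, cofactors, steroid enzymes and the related receptor, was tested as a list. Of 24 tested in the BAZ1B experiment, 7 rose and 12 fell between the days in WT cells (background 33.5% and 35.4%) and 6 rose and 9 fell in KO cells (33.2% and 34.5%). The coactivator NCOA3 fell in both (-1.17 and -1.18, adjusted p = 4.1e-10 and 4e-10, edgeR), the co-chaperone PPID fell (-0.73 and -0.46, adjusted p = 9.8e-08 and 8.4e-06), and HSD11B2, which inactivates cortisol, fell in WT (-1.06, adjusted p = 6.9e-05). In BAZ1B KO cells 1 was higher and 2 lower at D0, HSD11B2 among the lower (-0.65, adjusted p = 0.0388, background 1.25% and 2.64%), and 2 were higher and 1 lower at D6 (6.87% and 5.97%), with PPID higher (0.35, adjusted p = 0.00129). In H2A.X KO cells 10 of 23 were higher and 2 lower at D0 (18.4% and 16.7%), and 9 higher and 3 lower at D6 (22.2% and 20.9%), counts without the correction for length. The coactivator EP300 was higher on both days (2.34 and 2.94, adjusted p = 0.0112 and 0.00453, edgeR), with corrected values of 1.65 and 2.20 (adjusted p = 0.0222 and 0.0107). NCOA2 was too (1.48 and 2.23, adjusted p = 0.0154 and 0.00401), with corrected values of 0.66 and 1.35 (adjusted p = 0.100 and 0.0118). Without WT replicate 2 of the same day neither was called (adjusted p 0.132 and 0.0662 for EP300, 0.160 and 0.0639 for NCOA2). FKBP4, the co-chaperone that opposes FKBP5, was lower at D6 (-0.43, adjusted p = 0.028, and -0.45, adjusted p = 0.0335, corrected), a call lost without any one of 5 libraries (adjusted p 0.0509 to 0.314).

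Of 16 clock genes tested, 6 rose and 5 fell between the days in WT cells of the BAZ1B experiment (background 33.5% and 35.4%) and 9 rose and 5 fell in KO cells (33.2% and 34.5%). ARNTL, the partner of CLOCK, was higher in BAZ1B KO than in WT cells on both days (1.42 at each, adjusted p = 0.00027 and 0.000288, edgeR), and it fell between the days in each genotype (-1.27 in both, adjusted p = 3.7e-05 and 1.6e-05). Of the immediate early genes and feedback regulators of MAP kinase signalling, the group to which DUSP1 also belongs, 8 rose and 11 fell of 24 in WT cells of the BAZ1B experiment (background 33.5% and 35.4%). EGR1 (-4.15, adjusted p = 8.8e-10) and FOS (-3.46, adjusted p = 9.65e-07), both early response factors, fell while DUSP1 was higher at D6. In H2A.X KO cells 4 of 25 rose and 12 fell between the days (14.8% and 16.1%), with EGR1 at -9.36 (adjusted p = 3.4e-05) and FOS at -7.18 (adjusted p = 2.6e-05). At D6, 7 of 24 were lower and 0 higher in BAZ1B KO than in WT cells (5.97% and 6.87%), with EGR1 at -1.91 (adjusted p = 0.00107) and DUSP6, another MAP kinase phosphatase, at -0.77 (adjusted p = 0.0199).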

How the data were processed

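RNA was sequenced as single-end reads from poly(A) libraries. The authors deposited raw counts per gene, 1 column per library and 1 table per experiment, without normalization. The submitters' processing notes name STAR 2.7.0f, Subread 1.6.4 with featureCounts, DESeq2 1.22.1 and the build hg38. The methods name a stranded kit and the labels an unstranded one, so reads of TSC22D1, TSC22D3, ZFP36L2 and ZBTB16 could include some of genes that overlap them on the other strand. The tables also do not tell isoforms apart.

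Counts were fitted in R 4.3.3 with edgeR 4.0.16 for each experiment: filterByExpr (minimum count 10, minimum total 15), TMM, and the quasi-likelihood test with 1 coefficient per genotype and day, two-sided, with Benjamini-Hochberg adjustment over 13236 (H2A.X) and 13879 (BAZ1B) genes. All 9 members passed the filter in both. A call is an adjusted p below 0.05. SE were taken from the F statistic, with 95% intervals from the t distribution with the degrees of freedom of that test for each gene. The procedure was tested on simulated data. FPKM used the summed exons of GENCODE 44. Nothing in the labels says that replicates came from separate cultures, so p values measure only the spread between these samples.

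The members and the gene lists were chosen with earlier results of these data known. Named genes are the members, both targets, the TSC22D family, FKBP4 and HSD11B2, and per list and comparison up to 3 called genes in each direction with the largest change, a mean normalized count of at least 50 and no overlap. A gene that the rule names in 1 comparison may be given in others.

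Same-numbered D0 and D6 libraries had correlated deviations in H2A.X KO (0.600, 0.427 and 0.297), BAZ1B KO (0.606, 0.658 and 0.162) and H2A.X WT (0.491, a single value since there are 2 samples). In BAZ1B WT they were 0.155, 0.00868 and 0.183, so that not every pair there passed 0.1. The difference of the BAZ1B KO effects between the days was planned and first computed as a test, and is given as a description, since the members were listed on the day responses. Alternatives were DESeq2 1.42.0, upper-quartile normalization, scaling without globin genes, no filter, the libraries of 1 day, stricter cutoffs (adjusted p 0.001 and log2 fold change 1.5), a replicate or subclone term, a length and GC correction, and leaving out each library.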

Additional observations from a re-analysis of the deposited data

Results flagged for a closer look

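TSC22D1 moved in opposite directions between D0 and D6 in the H2A.X experiment: its log2 fold change was -0.79 in WT, where both D6 libraries lay below both D0 libraries, and 0.82 in KO, where all 3 D6 libraries lay above all 3 D0 libraries. ZBTB16 did the same, at -1.29 in WT and 3.53 in KO, on counts of 2 to 15 reads in the WT libraries. Neither difference was tested, because the members were chosen on these contrasts.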

How the results depend on the processing

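The correction for length and GC content moved TSC22D1 in H2A.X KO against WT at D0 to -2.10 (-2.07 with the replicate block). For H2A.X KO against WT at D0 it turned DUSP1 to 0.041 (0.18 with the block) and FKBP5 to -0.47 (-0.50), and at D6 SGK1 to -0.45 (-0.62), TSC22D1 to -0.53 (-0.51), TSC22D4 to 0.45 (0.53) and DUSP2 to 0.033 (0.0057). With the block added, it also turned FKBP5 to -0.0090 and CEBPB to 0.14 at D6. Upper-quartile normalization turned DUSP1 to -0.086 and TSC22D1 to -0.10 at D6, and no filter turned the difference of the BAZ1B KO effects between the days for NR3C1 to 0.0037. The cause was not tested.

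Members called in H2A.X KO at D6 went from 5 to 2 with the correction, 3 with correction and block, 3 with the libraries of that day alone and 0 at the stricter cutoffs. Calls over all genes went from 5701 of 13236 to 3186 of 12017, 4176 of 12017, 3731 of 12411 and 20 of 13236 in these settings. TSC22D1, a description in this contrast, is counted among the members called with the correction, with and without the block. In BAZ1B KO, 2 members at D0 became 4 without a filter and 0 at the stricter cutoffs, and 7 at D6 became 0 at those cutoffs. Over all genes 539 calls of 13879 at D0 became 1201 of 27165 and 50 of 13879, and 1782 at D6 became 104. Calls of members on the difference of the BAZ1B KO effects between the days are not given, since the genes were listed on the day responses. The glucocorticoid-induced genes called in BAZ1B KO went from 4 to 11 at D0 and from 14 to 22 at D6 without a filter. Calls over all genes went from 539 and 1782 of 13879 to 1201 and 2449 of 27165. In H2A.X KO at D0 the induced genes called went from 9 to 5 with the correction and with upper-quartile normalization. They came to 15 without a filter and 16 with that day alone. Over all genes the calls were 4651 of 13236, then 3104 of 12017, 4625 of 13236, 4941 of 25504 and 5980 of 12599. Between the days in H2A.X WT, 3 induced genes became 9 with DESeq2, 12 without a filter, 11 with the block and 8 with correction and block. Over all genes 265 calls of 13236 became 1067 of 13236, 1271 of 25504, 1127 of 13236 and 929 of 12017.

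Same-numbered KO and WT libraries share only a number. With the replicate block, 2 members were called in BAZ1B KO at D0, 7 at D6 and 4 in H2A.X KO at D6. Over all genes 585 and 1802 of 13879 and 6460 of 13236 were called. With this block TSC22D1 in H2A.X KO at D0 was -1.56, and SGK1 in H2A.X KO at D6 turned to -0.0091.

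Leaving out each library in turn gave 0 to 3 members called in BAZ1B KO at D0, 4 to 7 at D6 and 0 to 4 in H2A.X KO at D6. The induced genes called ranged from 2 to 7 and 11 to 17 in BAZ1B KO at D0 and D6, 0 to 15 and 1 to 21 in H2A.X KO at D0 and D6, 0 to 7 and 12 to 22 between the days in H2A.X WT and KO, and 34 to 38 and 32 to 36 in BAZ1B WT and KO. The 0 in H2A.X KO at D0 came without WT replicate 2 at D0, and the 1 at D6 without WT replicate 2 at D6, where 77 and 152 of all genes were called. Signs turned within the ranges of DUSP1 (-0.31 to 0.55), SGK1 (-0.095 to 0.41) and TSC22D1 (-0.061 to 0.13) in H2A.X KO at D6, of NR3C1 (-0.077 to 0.020), SGK1 (-0.13 to 0.013) and ZBTB16 (-0.62 to 0.22) in the difference of the BAZ1B KO effects, of TSC22D1 (-0.016 to 0.067) and ZFP36L2 (-0.027 to 0.050) in BAZ1B KO at D0, of DUSP1 (-0.058 to 0.80), FKBP5 (-0.21 to 0.011) and KLF9 (-0.36 to 0.016) between the days in H2A.X WT, and of ZBTB16 (-0.071 to 0.77) between the days in BAZ1B KO. Calls over all genes without each library in turn ran from 258 to 1323 in BAZ1B KO at D0 and from 1112 to 2443 at D6. In H2A.X KO at D6 they ran from 4520 to 6656 while both WT libraries of that day were kept. The biological coefficient of variation was 0.239 in the H2A.X experiment and 0.0865 in the BAZ1B experiment.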
